A study of Mus musculus with 8 samples.

Results

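The ETS factors are transcription factors that share a DNA-binding domain, the ETS domain, which reads a core of GGAA. The 10 described here are those known for roles in blood formation: Spi1 (encoding PU.1), Fli1, Erg, Etv6, Elf1, Elf2, Elf4, Ets2, Elk3 and Gabpa. They were picked by gene name as a family, with earlier results of these data known, and 10 of 10 were among the 12823 rows of the count table. A further 17 ETS genes of the mouse were looked up for comparison, of which 8 were in the table (Ets1, Erf, Etv3, Etv4, Etv5, Elk1, Elk4 and Spib). The other 9 (Etv1, Etv2, Etv3l, Elf3, Elf5, Ehf, Spic, Spdef and Fev) are not analysed here.

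PU.1 is the ETS factor that drives the myeloid and B cell programmes, and its dose is known to matter: low PU.1 holds cells in an immature state and high PU.1 favours macrophages. Fli1 and Erg bind with Runx1, Gata2, Tal1, Lyl1 and Lmo2 at the enhancers of blood stem cells, and Fli1 also drives megakaryocytes. Etv6 and Elk3 are known as repressors, whereas Gabpa encodes the DNA-binding subunit of GABP, which works with a beta subunit at promoters of housekeeping and mitochondrial genes.

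The libraries came from a mouse model of acute myeloid leukemia (AML). Bone marrow progenitors were transduced with a retrovirus that carries MLL-AF9, a fusion oncogene, together with GFP. New AML cells (4 libraries) grew in C57BL/6 recipients that had received sublethal irradiation. Aggressive AML cells (4 libraries) had gone through 5 serial transplantations in C57BL/6 mice. The study describes them as descendants of the new cells, and its methods describe those mice as not irradiated. All 8 libraries carry MLL-AF9 and GFP, were made from GFP+ cells sorted from bone marrow, and hold RNA purified with poly-T beads. The sort keeps cells that express the GFP of the oncogene construct, in which the fusion itself is driven by a viral promoter. Irradiation of the host, passage and any difference in date between the groups cannot be told apart. The labels call the libraries biological replicates without naming separate mice or leukemia lines, and p-values then measure the spread between these libraries.

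The libraries held 8421384 to 9697777 counts in new AML and 7805544 to 8704918 in aggressive AML. Levels are given as CPM, counts scaled to a common library total. For single genes, scaling factors between libraries (TMM) were also used. For the summed CPM of marker lists and Y-linked genes they were not. The summed CPM of 4 Y-linked genes lay between 252.1 and 290.8 in new AML and was 0 in all 4 aggressive AML libraries, a difference that cannot be told apart from passage. The labels give no sex. The study derives the aggressive cells from the new ones and states male mice for both groups, without saying whether donors or hosts are meant. Counts of 0 for Y-linked genes are not what male leukemia cells with a Y chromosome would give, and what the difference reflects was not tested. Of 9 markers of myeloid progenitors, 9 were measured, with summed CPM of 6067 to 6731 in new AML and 5859 to 7937 in aggressive AML, a sum that Mpo and Ctsg dominate. Of these 9, 4 were called higher (Kit, Elane, Ctsg and Meis1) and 1 lower (Itgam), beside 8.15% and 10.2% of all genes tested. Of 8 neutrophil markers 7 were called lower (beside 10.2% of all genes), with summed CPM of 265.5 to 389.3 in new AML against 128.6 to 179.5. The 4 macrophage markers measured, of 7 listed, summed to 64.2 to 112.9 against 38.0 to 56.8. Of these 4, only Adgre1 was called lower. It made up most of the sum, at 59.9 to 102.0 against 36.9 to 55.5 CPM. The 7 erythroid markers summed to 18.5 to 61.6 CPM and 7.58 to 29.8 CPM, and 1 of them was called lower. In bulk libraries fewer cells of one type and less RNA per cell cannot be told apart.

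Of the 10 hematopoietic ETS factors, Elk3 and Ets2 were higher in aggressive AML, Spi1 was lower, and 7 did not pass the test. A gene is called here when its adjusted p in edgeR's quasi-likelihood test, with Benjamini-Hochberg adjustment over all 12494 genes tested, is under 0.05. These 3 calls are 30.0% of the factors, beside 18.4% of all genes tested, and 8.15% of all genes were called higher and 10.2% lower. The same 3 factors had no overlap between the libraries of the groups, beside 21.8% of all genes tested (9.76% higher and 12.0% lower in aggressive AML). Changes were small: without regard to sign, the log2 fold changes of the 10 had a median of 0.18, against 0.19 over all genes, and with sign a median of 0.10, against 0.00. Unadjusted p-values were under 0.05 for 6 of the 10 (60.0%), beside 32.6% of all genes. The 10 had a median level of 142.2 CPM, against 34.6 CPM over all genes, and these shares are not matched for abundance.

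**Figure D1:**
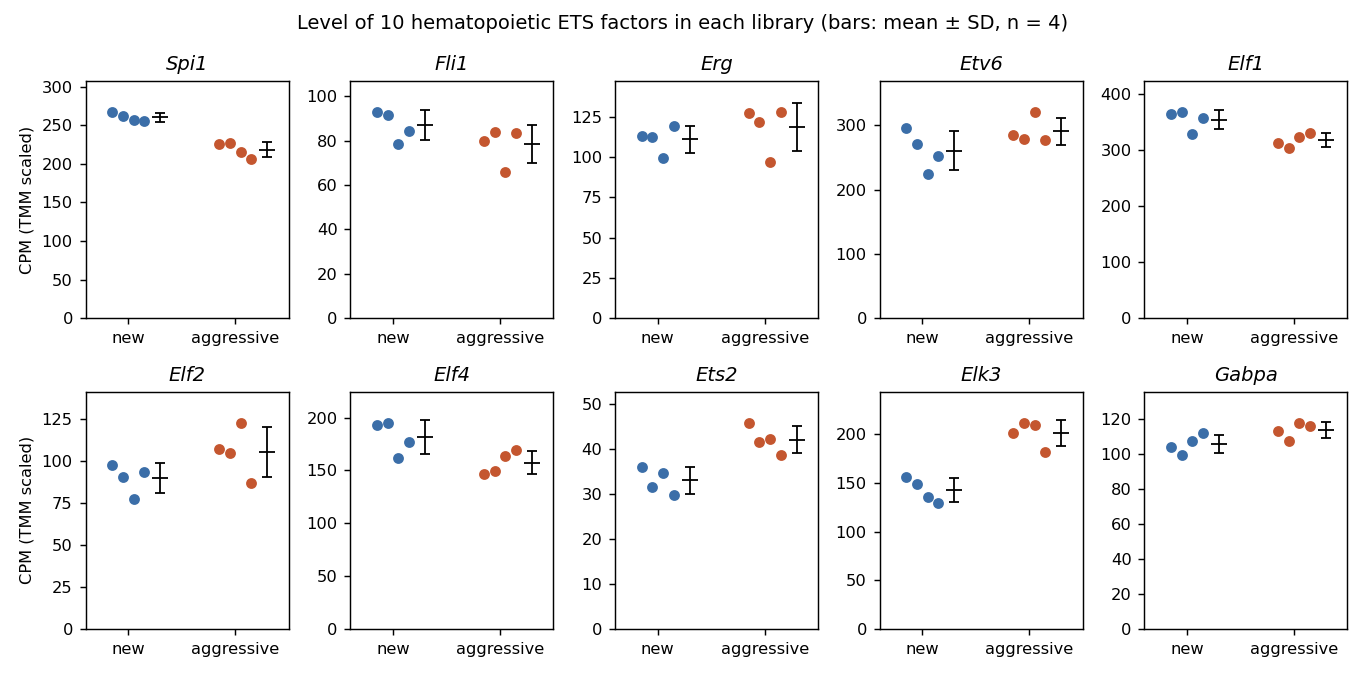
Level of each of the 10 hematopoietic ETS factors in CPM (y axis, from 0, TMM scaled) in the 4 new AML libraries (blue) and the 4 aggressive AML libraries (orange), 1 point per library, with mean and SD in black. The points of the groups do not overlap for Spi1, Ets2 and Elk3, and overlap for the other 7.

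Spi1 (chr2:91082374-91115759 in GRCm38, plus strand) encodes PU.1 and had the highest level per length of the family. Its level in new AML was 267.2, 261.7, 256.8 and 255.1 CPM, and in aggressive AML 225.7, 226.9, 214.8 and 206.8 CPM. Every aggressive library lay below every new library, and the new libraries were the more tightly grouped. The means were 260.2 ± 5.46 and 218.6 ± 9.55 CPM (SD, n = 4), a fall of 16.0% (log2 fold change -0.25, 95% interval -0.39 to -0.11, edgeR adjusted p = 0.0159). The call was lost without new AML replicate 2, at an adjusted p of 0.0524 and a log2 fold change of -0.25. Neutrophil and macrophage marker sums, given above, were lower in the same libraries (the latter sum mostly Adgre1), and their part in the Spi1 result was not tested.

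Elk3 (chr10:93247415-93311159, minus strand), a ternary complex factor that binds with serum response factor (SRF) and represses until it is phosphorylated by ERK, showed the largest change of the 10. Its level was 156.4, 148.9, 135.1 and 129.4 CPM in new AML. In aggressive AML it was 201.6, 212.0, 209.3 and 182.2 CPM. The lowest aggressive library was above the highest new one, and the means of 142.4 ± 12.4 and 201.3 ± 13.4 CPM (SD, n = 4) give a rise of 41.3% (log2 fold change 0.50, 95% interval 0.32 to 0.67, edgeR adjusted p = 6.57e-04). This call was made under all 16 alternative settings, with an adjusted p of at most 0.00343. Exons of Elk3 share 316 bases, 6.9% of its exon length, with Cdk17 on the opposite strand, and whether the counting used strand is not given in the sources used here. Cdk17 itself went from 58.4 to 84.0 CPM (edgeR adjusted p = 0.00183), so reads in the shared stretch cannot be told apart.

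The 250 bases before the RefSeq start of Elk3 are shown because it is the factor with the largest change, with GGAA on either strand (TTCC on the other strand) in capitals. The window is chr10:93311160-93311409, minus strand, in GRCm38.p6.
Elk3: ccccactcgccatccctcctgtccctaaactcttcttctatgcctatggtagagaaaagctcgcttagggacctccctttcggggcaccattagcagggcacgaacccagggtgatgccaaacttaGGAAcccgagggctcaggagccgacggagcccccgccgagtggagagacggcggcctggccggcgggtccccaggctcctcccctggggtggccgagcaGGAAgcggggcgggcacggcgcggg
The window holds 2 matches to GGAA and 0 to the longer motif GAGGAA, a core that PU.1 is known to prefer. Of all 32851 such windows, 93.4% hold GGAA and 23.3% hold GAGGAA, so a GGAA match is the usual case. Windows were on hand for 8 of the 10 factors, not for Spi1 and Fli1, and 2 of these 8 genes (25.0%) had a window with GAGGAA, beside 25.9% of all genes.

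Ets2 (chr16:95702407-95721049, plus strand) encodes an activator that is switched on by phosphorylation downstream of RAS, and was the lowest of the 10 per length. The new libraries held 36.1, 31.5, 34.8 and 29.8 CPM, and the aggressive libraries 45.9, 41.6, 42.4 and 38.7 CPM. The groups did not overlap, but the highest new library and the lowest aggressive one were close. The means were 33.1 ± 2.93 and 42.1 ± 2.97 CPM (SD, n = 4), a rise of 27.4% (log2 fold change 0.35, 95% interval 0.13 to 0.57, edgeR adjusted p = 0.0281). The call rests on single libraries: it was lost on leaving out new AML replicate 2, new AML replicate 4, aggressive AML replicate 1 or aggressive AML replicate 2, with adjusted p of 0.0904, 0.0864, 0.0833 and 0.0559.

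Fli1 (chr9:32422204-32543432, minus strand) and Erg (chr16:95359169-95586600, minus strand) are close relatives that bind the same stem cell enhancers. Fli1 was at 92.9, 91.7, 78.5 and 84.4 CPM in new AML and 80.0, 83.8, 65.8 and 83.7 CPM in aggressive AML (log2 fold change -0.15, 95% interval -0.35 to 0.05, edgeR adjusted p = 0.294). Erg was at 113.1, 112.6, 99.3 and 119.3 CPM in new AML and 127.2, 122.0, 96.7 and 127.9 CPM in aggressive AML (log2 fold change 0.09, 95% interval -0.11 to 0.30, edgeR adjusted p = 0.537). For both genes the groups overlapped, and aggressive AML replicate 3 was the lowest of its group. Neither level passed the test, while the ratio of the pair within a library separated the groups. Fli1 counts were 0.821, 0.814, 0.791 and 0.708 of the Erg counts in new AML and 0.629, 0.687, 0.681 and 0.654 of them in aggressive AML. All 4 aggressive ratios were lower than all 4 new ones, and the mean log2 ratio moved from -0.35 ± 0.10 to -0.59 ± 0.06 (SD, n = 4), a difference of -0.24 (exact two-sided permutation test, p = 0.0286, adjusted over 3 ratios 0.0429). The smallest p that 4 against 4 libraries can give is 0.0286. The adjusted p is under 0.05 only because another of the 3 ratios, Spi1 to Gata2, also reached that smallest p. The ratio compares counts, not levels per length, and Fli1 and Erg share no stretch of 50 bases that would let reads of one match the other.

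Elf1 (chr14:79481174-79582491, plus strand), Elf2 (chr3:51252720-51340683, minus strand) and Elf4 (chrX:48411049-48463132, minus strand) form a subfamily of mostly activating factors, with Elf4 known for a part in the quiescence of blood stem cells and T cells. Elf1 was at 363.2, 367.5, 328.8 and 356.2 CPM in new AML and 312.4, 302.9, 323.0 and 330.4 CPM in aggressive AML (log2 fold change -0.16, 95% interval -0.30 to -0.01, edgeR adjusted p = 0.117). Elf4 was at 193.0, 195.3, 161.5 and 177.1 CPM in new AML and 147.1, 149.6, 163.8 and 169.1 CPM in aggressive AML (log2 fold change -0.21, 95% interval -0.38 to -0.03, edgeR adjusted p = 0.0917). Both medians were lower in aggressive AML, yet each gene had 1 new library, replicate 3, inside the range of the aggressive group. Without new AML replicate 3, Elf4 was called (log2 fold change -0.26, edgeR adjusted p = 0.0365). Elf2 was at 97.9, 90.3, 77.6 and 93.5 CPM in new AML and 107.4, 104.5, 122.9 and 87.0 CPM in aggressive AML (log2 fold change 0.23, 95% interval 0.01 to 0.45, edgeR adjusted p = 0.142). Here aggressive AML replicate 4 lay within the new AML range, and without it Elf2 was called (log2 fold change 0.32, edgeR adjusted p = 0.0384). The log2 ratio of Elf1 to Elf4 averaged 0.96 ± 0.06 over the new libraries and 1.01 ± 0.05 over the aggressive ones (SD, n = 4), a difference of 0.05 (exact two-sided permutation test, p = 0.257).

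Etv6 (chr6:134035700-134270158, plus strand) encodes a repressor needed by adult blood stem cells. The new libraries held 296.1, 270.9, 223.8 and 252.0 CPM, and the aggressive libraries 285.3, 278.3, 320.7 and 277.2 CPM. The new group was the wider one and overlapped the aggressive group at its top library (log2 fold change 0.16, 95% interval -0.03 to 0.34, edgeR adjusted p = 0.238). Gabpa (chr16:84834891-84863783, plus strand) was at 104.0, 99.7, 107.3 and 112.3 CPM in new AML and 113.0, 107.7, 117.9 and 116.2 CPM in aggressive AML (log2 fold change 0.10, 95% interval -0.05 to 0.26, edgeR adjusted p = 0.355). The intervals of these genes leave room for changes of the size seen in Spi1, so a missed threshold does not show equal levels. The genes of the beta subunits that pair with Gabpa were at 63.4 ± 6.16 and 71.2 ± 9.01 CPM for Gabpb1 (log2 fold change 0.17, edgeR adjusted p = 0.286) and at 210.4 ± 8.47 and 205.5 ± 20.4 CPM for Gabpb2 (log2 fold change -0.03, edgeR adjusted p = 0.806). The sign of Gabpb2 turned, to 0.020, without aggressive AML replicate 3.

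Exons of Elf1, Elf2, Etv6 and Gabpa also overlap a gene on the opposite strand, by 4.9%, 3.9%, 2.3% and 7.0% of their exon length. The partners measured were Wbp4 for Elf1, 4930577N17Rik for Elf2 and Atp5j for Gabpa, and 0 of these 3 were called. The exons of Spi1, Erg, Elf4 and Ets2 overlap none of the annotated exons of other genes, and share 0% of their 50-base stretches with them.

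**Figure D2:**
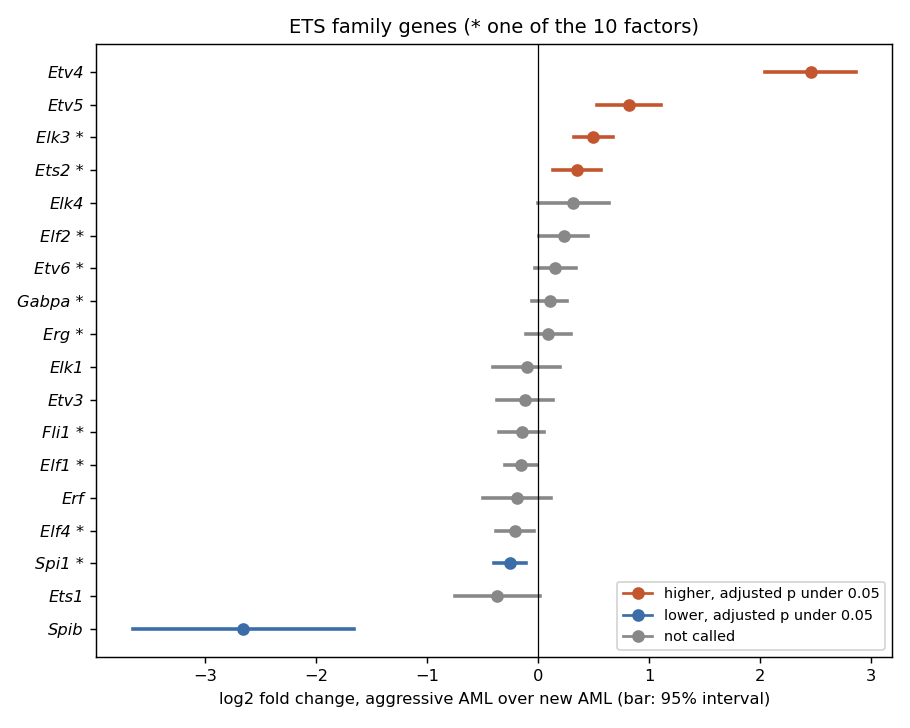
Log2 fold change of aggressive over new AML (x axis) for the 18 ETS genes measured (y axis, asterisks mark the 10 hematopoietic factors), with 95% intervals as bars and called genes in colour (orange higher, blue lower). The 3 called hematopoietic factors lie between -0.25 and 0.50, while Etv4 at 2.46 and Spib at -2.66 stand at the ends.

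Among the 8 other ETS genes measured, 3 (37.5%, beside 18.4% of all genes) were called, 2 higher and 1 lower (beside 8.15% and 10.2%), and the median size of their log2 fold changes was 0.34, against 0.19 over all genes. Etv4, a factor induced by ERK signalling, was at 3.08, 2.74, 4.24 and 3.34 CPM in new AML and 18.6, 22.5, 17.6 and 15.1 CPM in aggressive AML (log2 fold change 2.46, edgeR adjusted p = 6.96e-07). Its relative Etv5 was at 18.1, 15.3, 16.0 and 13.2 CPM and at 29.5, 29.3, 22.2 and 29.4 CPM (log2 fold change 0.82, edgeR adjusted p = 7.49e-04), although 24.5% of its 50-base stretches also occur in the locus Gm4798, where counting could split reads. Both genes were low in every new AML library and higher in every aggressive one. Spib, the closest relative of Spi1 and a B cell and dendritic cell factor, had 20, 17, 11 and 30 counts in new AML and 2, 2, 3 and 4 counts in aggressive AML (log2 fold change -2.66, SE 0.47, edgeR adjusted p = 0.00113). Spib passed the filter on low counts only through the new AML libraries, so that its call supports nothing, and without it 2 of the other 7 were called, both higher. Under 5 of the 16 alternative settings Spib was under the filter on low counts. The 3 B cell markers measured summed to 36.6 to 41.9 CPM in new AML and 30.2 to 33.7 CPM in aggressive AML, and their part in the Spib result was not tested. The other 5 were not called: Ets1 had a log2 fold change of -0.37, Erf of -0.19, Etv3 of -0.12, Elk1 of -0.10 and Elk4 of 0.32, with edgeR adjusted p from 0.155 to 0.661.

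Levels of different genes can be compared only per length, here as CPM per kilobase of exon. In new AML, Spi1 stood at 96.6 ± 2.03 CPM per kb (SD, n = 4), above Elf1 at 52.5 ± 2.58 and Etv6 at 43.6 ± 5.10 CPM per kb. Erg at 32.0 ± 2.43, Elk3 at 31.3 ± 2.72 and Elf4 at 29.6 ± 2.55 CPM per kb followed, and these neighbours differed by less than their spread. Fli1 at 24.9 ± 1.93, Gabpa at 18.6 ± 0.937, Elf2 at 9.40 ± 0.912 and Ets2 at 5.72 ± 0.507 CPM per kb completed the order. In aggressive AML Spi1 was again first, at 81.1 ± 3.54 CPM per kb, and Elk3 had moved to 44.2 ± 2.95 CPM per kb, beside Etv6 at 48.5 ± 3.43 and Elf1 at 47.1 ± 1.79 CPM per kb. Within these 3, neighbours in the order differed by less than their spread. Erg was then at 34.2 ± 4.26, Elf4 at 25.6 ± 1.74, Fli1 at 22.5 ± 2.44, Gabpa at 20.0 ± 0.792, Elf2 at 11.0 ± 1.54 and Ets2 at 7.29 ± 0.513 CPM per kb.

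The summed level of all 18 ETS genes was 346.5 to 390.1 CPM per kb in new AML and 369.1 to 379.4 in aggressive AML, ranges that overlap. The 10 hematopoietic factors made up 92.1% to 92.9% of that sum in new AML and 90.7% to 91.3% in aggressive AML. Spi1 held 26.0% ± 0.998 of it in new AML and 21.6% ± 0.695 after serial transplantation (SD, n = 4), and that of Elk3 was 8.42% ± 0.491 and 11.8% ± 0.681. Elf1 held 14.1% ± 0.235 and 12.5% ± 0.616, and Etv6 held 11.7% ± 0.800 and 12.9% ± 0.913. These shares follow from the same counts as the fold changes above and are a description, with no test of their own.

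**Figure D3:**
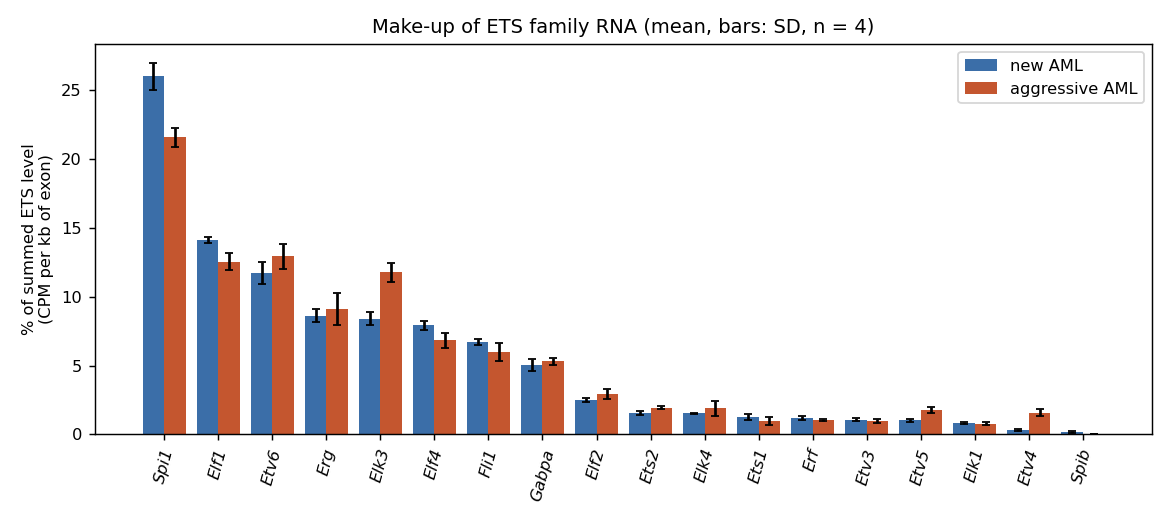
Share of the summed ETS level (y axis, percent of CPM per kb of exon, from 0) held by each of the 18 ETS genes (x axis) in new AML (blue) and aggressive AML (orange), as mean with SD over 4 libraries. Spi1 is the tallest pair of bars, at 26.0% and 21.6%, and Elk3 goes from 8.42% to 11.8%.

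ETS factors bind with other factors, of which 18 partners were listed and 16 tested. In this list 0 were called higher and 4 lower (beside 8.15% and 10.2% of all genes). The 4 calls are 25.0% of the 16, beside 18.4% of all genes, and the median log2 fold change of the 16 was -0.17. Their median level was 174.0 CPM, against 34.6 CPM over all genes, and the shares are not matched for abundance. Runx1, which binds with PU.1, Fli1 and Erg and opens blood enhancers, was at 218.1, 205.4, 175.7 and 211.0 CPM in new AML and 120.0, 100.7, 87.2 and 102.1 CPM in aggressive AML. The groups were far apart, with a log2 fold change of -0.98 (edgeR adjusted p = 9.17e-06). Irf8, which needs PU.1 to bind composite sites and directs monocyte fate, was at 610.9, 651.3, 587.5 and 656.9 CPM and at 480.1, 436.4, 355.3 and 455.8 CPM (log2 fold change -0.54, edgeR adjusted p = 6.57e-04). Its relative Irf4 had 12, 31, 17 and 35 counts in new AML and 4, 2, 0 and 10 counts in aggressive AML (log2 fold change -2.44, edgeR adjusted p = 0.0103), on very few counts. It too passed the filter through the new AML libraries. Without it 3 of the other 15 partners tested were called, all lower, beside 18.4% of all genes called and 10.2% called lower. Mkl1, a coactivator that competes with ternary complex factors such as Elk3 for SRF, went from 112.4 ± 12.1 to 77.7 ± 12.4 CPM (log2 fold change -0.53, edgeR adjusted p = 0.00394).

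Of the stem cell partners of Fli1 and Erg, Tal1, a bHLH factor named here after its values were seen, was under the filter and not tested, with 34, 8, 33 and 26 counts in new AML and 1, 1, 1 and 4 counts in aggressive AML. Lmo2, a bridging protein, was at 470.6 ± 27.8 and 433.0 ± 6.25 CPM (log2 fold change -0.12, edgeR adjusted p = 0.230). Lyl1, which binds with it, was at 374.6 ± 23.2 and 339.9 ± 78.8 CPM (log2 fold change -0.14, edgeR adjusted p = 0.495), and its sign turned, to 0.014, without aggressive AML replicate 3. Gata2, a zinc finger factor that opposes PU.1 in progenitors, was at 48.0 ± 7.25 and 50.9 ± 4.72 CPM and was not called (edgeR adjusted p = 0.664). For each Gata2 count the new AML libraries held 5.16, 5.19, 6.88 and 4.83 Spi1 counts, and the aggressive AML libraries 4.35, 3.98, 4.69 and 4.21. All 4 aggressive ratios were below all 4 new ones, with a mean log2 ratio of 2.45 ± 0.23 and 2.10 ± 0.10 (SD, n = 4) and a difference of -0.34 (exact two-sided permutation test, p = 0.0286, adjusted over 3 ratios 0.0429). The largest ratio, in new AML replicate 3, carried part of that, and without it the difference was -0.23. Spi1 by itself already separated the groups, so this ratio is not a result independent of the Spi1 call.

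**Figure D4:**
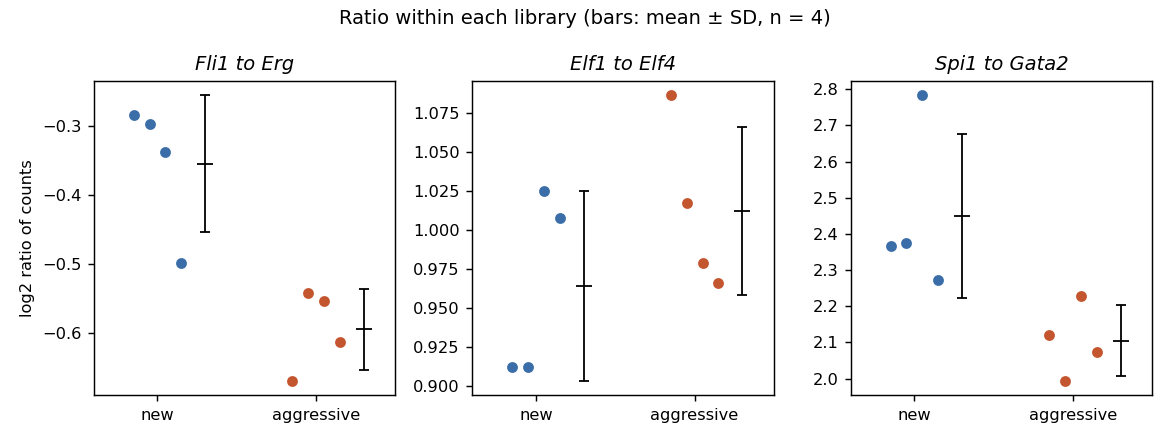
Log2 ratio of counts within each library (y axis) for Fli1 to Erg, Elf1 to Elf4 and Spi1 to Gata2 in the 4 new AML (blue) and 4 aggressive AML (orange) libraries, with mean and SD in black. The groups separate for Fli1 to Erg (means -0.35 and -0.59) and Spi1 to Gata2 (means 2.45 and 2.10) and overlap for Elf1 to Elf4, and the y axes do not start at 0.

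Among known targets of PU.1 in myeloid cells, more were called lower than higher, and most were not called. Of 34 listed, 31 were measured and 30 tested, of which 12 (40.0%, beside 18.4% of all genes) were called and 18 were not. The calls were 2 higher and 10 lower (beside 8.15% and 10.2% of all genes), and the median log2 fold change of the 30 was -0.11. These targets had a median level of 217.4 CPM, against 34.6 CPM over all genes, and the shares are not matched for abundance. Many of these genes are also markers of neutrophils and macrophages, whose marker sums given above were lower in aggressive AML, and their part in this result was not tested. The macrophage sum is mostly Adgre1, itself 1 of the 10 targets called lower. Grouped by role after the values were seen, the 4 colony-stimulating factor receptors were all called lower (Csf1r, Csf2ra, Csf2rb and Csf3r). Of the 2 integrin chains, Itgam was called lower and Itgb2 was not called. Of the 5 NADPH oxidase subunits, 2 were called lower (Cybb and Ncf4) and 3 were not called, and of the 4 Fc receptor genes and adaptors 0 were called. Of the 4 granule protein genes 2 were called higher (Elane and Ctsg) and 0 lower. The remaining targets tested were not grouped. Among them Lyz2, Ctss and Adgre1 were called lower, and Cd14, Cd68, Tlr4, Btk, Ly86, Mrc1, Egr2 and Nab2 were not called.

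Csf1r, the receptor of macrophage colony-stimulating factor and the best known PU.1 target, was at 151.6, 173.6, 137.1 and 202.5 CPM in new AML and 50.8, 42.3, 55.0 and 56.7 CPM in aggressive AML. The groups were far apart, and the log2 fold change was -1.70 (edgeR adjusted p = 3.76e-07). Csf3r, the receptor of granulocyte colony-stimulating factor, was at 112.6, 127.2, 101.3 and 121.1 CPM and at 73.9, 73.9, 60.7 and 70.8 CPM (log2 fold change -0.73, edgeR adjusted p = 8.30e-05). Ctss, a lysosomal protease of antigen-presenting cells, was at 118.3, 134.6, 153.3 and 153.4 CPM in new AML and 55.9, 65.0, 80.4 and 59.4 CPM in aggressive AML (log2 fold change -1.10, edgeR adjusted p = 1.41e-05). Itgam, the integrin chain CD11b, chosen here after its values were seen, went from 494.7 ± 90.3 to 324.2 ± 20.3 CPM (log2 fold change -0.61, edgeR adjusted p = 0.00122). Its partner chain Itgb2 was at 270.3 ± 21.4 and 269.0 ± 4.66 CPM (log2 fold change -0.0071, 95% interval -0.16 to 0.15, edgeR adjusted p = 0.958). Against these, Ctsg, a serine protease of primary granules, was at 1256.7, 1350.7, 1597.7 and 1424.2 CPM and rose to 2174.2, 2030.5, 1814.0 and 2001.0 CPM (log2 fold change 0.51, edgeR adjusted p = 6.36e-04). The most abundant targets that were not called were Mpo, the granule peroxidase, with a log2 fold change of -0.20 (edgeR adjusted p = 0.328), and Prtn3, a further granule protease, with one of -0.08 (edgeR adjusted p = 0.675). Mpo was called, at -0.38, without aggressive AML replicate 1 (edgeR adjusted p = 0.0164).

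**Figure D5:**
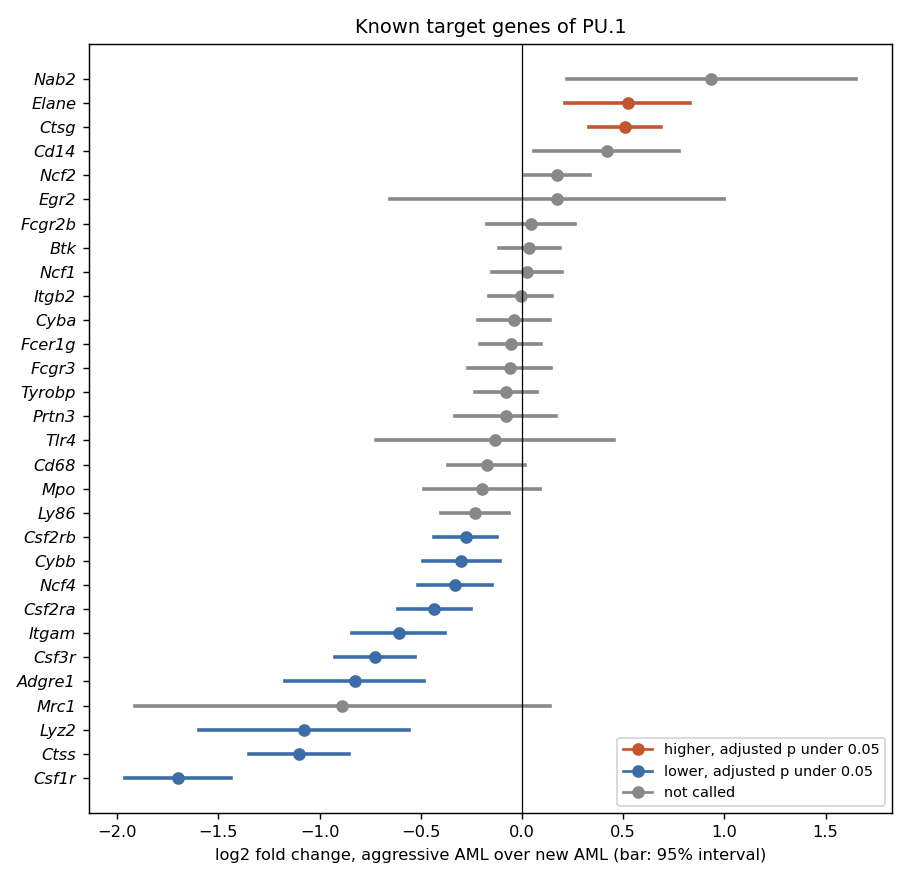
Log2 fold change of aggressive over new AML (x axis) with 95% intervals for the 30 PU.1 target genes tested (y axis, sorted), with called genes in colour (orange higher, blue lower). Of the 12 called genes, 10 lie left of 0, down to Csf1r at -1.70, and Ctsg and Elane lie right of it.

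The 250 bases before the start are shown for a pair of PU.1 targets, picked because they were called lower and hold GAGGAA, again with GGAA or TTCC in capitals. Ctss is at chr3:95526536-95526785 and Itgam at chr7:128062390-128062639, both on the plus strand of GRCm38.p6.
Ctss: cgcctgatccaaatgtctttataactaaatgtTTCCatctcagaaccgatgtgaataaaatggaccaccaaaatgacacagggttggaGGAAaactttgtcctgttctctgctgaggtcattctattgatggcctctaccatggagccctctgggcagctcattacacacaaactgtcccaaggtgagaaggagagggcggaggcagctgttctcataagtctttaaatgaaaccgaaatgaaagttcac
Itgam: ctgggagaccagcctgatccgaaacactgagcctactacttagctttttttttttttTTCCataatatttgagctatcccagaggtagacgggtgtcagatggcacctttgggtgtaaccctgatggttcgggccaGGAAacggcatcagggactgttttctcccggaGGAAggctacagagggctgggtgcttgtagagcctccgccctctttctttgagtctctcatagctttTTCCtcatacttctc
The Ctss window holds 2 matches to GGAA, 1 of them within GAGGAA, and the Itgam window holds 4, of which 2 are within GAGGAA. Windows were on hand for 22 of the 31 measured targets, and 13 of these genes (59.1%) had GAGGAA in a window, beside 25.9% of all genes. The motif was present among genes called in either direction: 4 of the 6 called-lower genes with a window held it, Cybb and Lyz2 did not, and both genes called higher, Ctsg and Elane, did. Of the 13 targets with a window that were tested and not called, 6 held it. A match describes letters, not binding, and the data hold no measurement of PU.1 on DNA.

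Targets of GABP were listed for Gabpa. Of 14 tested, 1 (7.14%, beside 18.4% of all genes) was called, Skp2, a subunit of a ubiquitin ligase that lets cells enter S phase, which went from 44.1 ± 3.22 to 34.5 ± 4.94 CPM (log2 fold change -0.35, edgeR adjusted p = 0.0428). That call was lost on leaving out any 1 of 7 of the 8 libraries, with adjusted p of 0.0522 to 0.121, and was kept without aggressive AML replicate 4. Atp5b, a subunit of the mitochondrial ATP synthase, was at 1249.3 ± 121.7 and 1470.8 ± 86.5 CPM (log2 fold change 0.24, edgeR adjusted p = 0.0507), just outside the threshold, and was called under 9 of the 16 alternative settings. Cox4i1, of the respiratory chain, was at 336.9 ± 40.8 and 367.5 ± 44.5 CPM (log2 fold change 0.12, edgeR adjusted p = 0.412).

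Of 16 stem cell and megakaryocyte targets of Fli1 and Erg, 8 were tested, with 2 called higher and 0 lower (25.0%, beside 18.4% of all genes called and 8.15% called higher). Both, Kit and Meis1, are also among the 4 myeloid progenitor markers called higher. Kit, the receptor of stem cell factor, was at 108.8, 111.1, 79.5 and 122.4 CPM in new AML and 174.2, 138.9, 172.6 and 174.6 CPM in aggressive AML (log2 fold change 0.65, edgeR adjusted p = 0.00140). Meis1, a homeobox partner of the HOXA factors, was at 105.2, 97.0, 98.3 and 101.1 CPM and at 113.1, 126.7, 177.7 and 133.3 CPM (log2 fold change 0.45, edgeR adjusted p = 0.0117). For both genes the groups did not overlap, and the aggressive libraries were the wider ones for Meis1. Hhex, a homeobox gene of early progenitors, was at 89.0 ± 10.2 and 97.1 ± 20.8 CPM (log2 fold change 0.12, edgeR adjusted p = 0.533), and its sign turned, to -0.033, without aggressive AML replicate 3.

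The genes whose levels ran most like Spi1 were named by Pearson's r of log2(CPM + 1) over the 8 libraries, among 9288 genes with a mean of at least 10 CPM. They were Naa60, a protein acetyltransferase (r = 0.985), Plod3, a collagen lysyl hydroxylase (r = 0.982), Pitpna, a phosphatidylinositol transfer protein (r = 0.981), Pde4a, a cAMP phosphodiesterase (r = 0.980), and Slc29a1, a nucleoside transporter (r = 0.972). With the group means removed, r was 0.858, 0.839, 0.812, 0.796 and 0.893, in the same order. The 8 points fall into the study's 2 groups and share library depth, so these values describe likeness and no more. They were picked for their likeness to Spi1, which separates the groups, so that their own fall follows from the choice. As a description, they had log2 fold changes of -0.39, -0.41, -0.24, -0.29 and -0.35.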

How the data were processed

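RNA from 4 new AML and 4 aggressive AML libraries was analysed from 1 table of the series. Per the study's methods, the authors aligned paired-end reads to mm10 with HISAT2, counted them per gene with Rsubread, and kept genes at 1 CPM or more. The deposited values are whole-number counts per gene, although the table is named for CPM. The annotation and the use of strand are not given in the sources used here.

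Counts were tested with edgeR 4.0.16 (R 4.3.3) by quasi-likelihood F-test, with TMM factors and group as the only term, on the 12494 genes that reached 1 CPM in 4 or more of the 8 libraries (329 rows were left out). P-values were adjusted by Benjamini-Hochberg, and 0.05 was the limit for a call. CPM are TMM scaled, except the sums of marker lists and Y-linked genes, which use library totals alone. The common biological coefficient of variation was 0.118. The study's methods tested log2 CPM with limma, which was run as an alternative (limma 3.58.1), as was DESeq2 1.42.0. Levels per kb use the union of GENCODE exons. Positions and upstream sequences are from RefSeq (GRCm38.p6), credited by gene symbol. Ratios within a library had 0.5 added to each count and were tested by exact permutation over 70 choices. The code was tested on simulated data.

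The 10 factors and the lists were chosen with earlier results of these data known. Besides the 10 factors and the other ETS genes measured, the genes named are, in each list, up to 4 called genes with the smallest adjusted p and up to 2 not called with the highest mean CPM, Gabpb1 and Gabpb2, and the 5 genes most like Spi1. Other names are members of a small count, marker lists, or overlap partners, and were chosen after their values were seen.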

Additional observations from a re-analysis of the deposited data

Results flagged for a closer look

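Among 86 groups of 4 libraries examined, 6 held 1 library whose gap to the nearest other, divided by the range of the group, was above Dixon's 95% critical value. Chance flags about 1 in 20 groups. Of these 6, 4 concerned aggressive AML replicate 3, which is also where Fli1 and Erg were lowest in their group. In that library Etv5 was at 22.2 CPM, against 29.3 to 29.5 in the other 3, and Elk4 was at 64.4 CPM, against 37.5 to 40.1. In the same library Hhex was at 128.1 CPM, against 83.3 to 89.3, and Gabpb1, the partner of Gabpa, was at 84.6 CPM, against 65.9 to 67.8. Kit was at 138.9 CPM in aggressive AML replicate 2, against 172.6 to 174.6. Slc29a1, 1 of the genes most like Spi1, was at 111.3 CPM in new AML replicate 1, against 102.5 to 102.6. None of the 10 hematopoietic ETS factors had such a library in either group.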

How the results depend on the processing

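Leaving out 1 library at a time gave 1466 to 2324 called genes in all, with the lowest number without new AML replicate 2, and 1 to 4 called among the 10 factors, also lowest there (Elk3 alone). In the same refits the other ETS genes had 2 to 3 calls, the partners 4 to 5 (6 with no filter, 3 with at least 10 CPM, all lower), the PU.1 targets 9 to 14, the GABP targets 0 to 3 and the Fli1 and Erg targets 2 to 3. GABP targets had 2 calls, from 1, with DESeq2, with RLE factors, with library totals only, with no filter, with at least 10 CPM, with limma-voom and with the replicate block. The 8 settings that keep all libraries left 3 of the 10 factors called, and 0 factors changed sign in any setting. Signs turned without aggressive AML replicate 3 for Lyl1 (0.014, range -0.24 to 0.014), Hhex (-0.033, range -0.033 to 0.20) and Gabpb2 (0.020, range -0.091 to 0.020), none of which was called.

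The ratio of Fli1 to Erg differed by -0.29 to -0.21 and that of Spi1 to Gata2 by -0.40 to -0.23 when 1 library was left out. With 4 against 3 libraries the adjusted p was 0.0857 by construction, since fewer choices remain. Replicate numbers did not pair the libraries (correlation of deviations 0.10, -0.04, -0.07 and 0.20). With the replicate block, sign flips gave the same differences, -0.24 and -0.34, with adjusted p of 0.1875, and the count of called genes was 2367. Fold changes of genes outside the 10 factors were put through these settings after the data were seen. Spib, at 2 to 30 counts, and Irf4, at 0 to 35 counts, are limited by depth.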

Other observations

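A pair of ETS neighbours lies on each of chromosomes 9 and 16. Fli1 and Ets1 are 92.8 kb apart with 0 protein-coding genes between them, and went from 86.9 ± 6.71 to 78.3 ± 8.50 CPM and from 39.5 to 30.6 CPM, with log2 fold changes of -0.15 and -0.37, neither of them called. Erg and Ets2 are 115.8 kb apart, again with 0 protein-coding genes between them. Erg went from 111.1 ± 8.43 to 118.5 ± 14.8 CPM and was not called (log2 fold change 0.09), whereas Ets2 was called (log2 fold change 0.35). The difference between Erg and Ets2 was not tested.

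The spread between libraries was smaller for the hematopoietic ETS factors than for genes in general. The median coefficient of variation of the 10 was 8.18% among new and 6.92% among aggressive libraries, against 10.6% and 12.3% over all genes tested. They were also more abundant, with a median of 142.2 CPM against 34.6 CPM, and the comparison is given without a test.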
